A study of Mus musculus with 10 samples.

Results

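The nuclear genes for subunits of respiratory complexes II, III and V, together with cytochrome c and the subunits of cytochrome c oxidase (complex IV, COX) that are not split into tissue isoforms here, were examined in interscapular brown adipose tissue (iBAT). They were picked by symbol from the deposited table, as rows starting with Sdha, Sdhb, Sdhc, Sdhd, Uqcr or Atp5 and the named rows Cyc1, Cycs, Atpif1, Cox5a, Cox5b, Cox6c, Cox7b and Cox7c, a rule that uses no expression value. This gave 37 of 15075 genes. The study compared 5 Control mice with 5 AdCKO mice, labelled wild-type and knockout, the latter lacking Crls1, the gene for cardiolipin synthase, in adipocytes. Both groups were C57BL/6 mice aged 20 weeks and kept at room temperature, and both carried Crls1 alleles with loxP sites around exon 4. Only AdCKO mice also carried Cre under the adiponectin promoter, which acts in white and brown adipocytes alike and leaves the other cells of the depot undeleted. Polyadenylated RNA was sequenced, 1 library per mouse, and levels are given as normalized reads per kb of counted exon.

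Complex II (succinate dehydrogenase) passes electrons from the citric acid cycle to ubiquinone, complex III passes them on to cytochrome c while pumping protons, and COX hands them to oxygen. ATP synthase (complex V) has an F1 head in the matrix, where ATP is made, and a membrane part with a ring of c subunits that protons turn. Cardiolipin is the phospholipid of the inner mitochondrial membrane in which all of these complexes sit. Brown adipocytes are rich in respiratory chain and, because UCP1 lets protons back across the membrane without ATP being made, are known for holding little ATP synthase for their amount of respiratory chain, with the c subunit gene Atp5g1 kept low.

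Crls1 itself was at 813 to 1291 in the Control libraries and at 193 to 249 in the AdCKO libraries, so every library had the level its label called for. The brown adipocyte genes Ucp1 and Cidea were abundant in every library, with Ucp1 at 24203 to 46569.6 in Control and 7895 to 18828 in AdCKO. Of 8 brown adipocyte markers, 5 were called lower in AdCKO and 3 did not pass the test, among them Dio2, at a log2 change (AdCKO minus Control) of 0.90. With every library at the same total 5 were called lower and 2 higher, and after quantile normalization 4 and 1. For this and the other marker lists, the shares over all tested genes were 28.0% lower and 25.6% higher on the deposited values. At the same total they were 9.77% and 60.6%, and after quantile normalization 31.2% and 22.0%. The 8 summed to 65806 to 89940.5 per Control library and 21281 to 44011 per AdCKO library. Of 6 genes of adipocytes of any kind, 5 were called lower, among them Lipe (-1.20), Cebpa (-1.11) and Plin1 (-0.62, all log2 changes). The 6 summed to 157698 to 191604 per Control library and 115247 to 131172 per AdCKO library, with no overlap. Most of this sum was Fabp4, at means of 147241 in Control and 108235 in AdCKO. Fabp4 was the gene of the 6 not called (log2 change -0.44, adjusted p = 0.020), and its log2 change was 0.04 at the same total. With every library at the same total, 2 of these 6 were called lower, and after quantile normalization 1. All 7 macrophage markers and all 5 fibroblast markers were called higher, with sums of 443 to 1279.9 against 6836 to 9205 and of 799 to 1112 against 2971 to 4272. The 12 skeletal muscle markers summed to 155 to 224 in the Control libraries and to 8398, 31296, 265, 12394 and 279 in AdCKO replicates 1 to 5, so that muscle RNA stood out in AdCKO replicates 1, 2 and 4. The 6 T and B cell markers summed to 224 in AdCKO replicate 1 and to at most 64.96 elsewhere. In a bulk tissue, fewer cells of a type and less RNA per cell cannot be told apart, and the part of cell makeup in the results below was not tested.

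Of the 37 genes, 32 were lower in AdCKO, 2 were higher and 3 did not pass the test (limma on log2(value + 1), Benjamini-Hochberg adjusted p below 0.01 over the 11244 genes tested, which included all 37). Among all tested genes, 28.0% were called lower and 25.6% higher. Every one of the 32 had all 5 AdCKO libraries below all 5 Control libraries. Such a separation was shown by 26.4% of tested genes, and the opposite one, which both higher genes had, by 24.5%. AdCKO means of the 32 were 33.2% to 75.6% of the Control means, with a median of 47.7%. The median log2 fold change (AdCKO minus Control, called the log2 change from here on, and given ± its SE) was -0.997 for the 37, and -0.01 for all tested genes. Summed over the 37 genes, Control libraries held 206153 to 241177 and AdCKO libraries 91543 to 127560.0 normalized reads per kb. Their share of all normalized reads was 3.27 to 3.48% per Control library and 1.85 to 2.5% per AdCKO library. When the 3 muscle-bearing AdCKO libraries were left out, a choice made after the data were seen, 31 genes were called lower and 2 higher, against 19.3% and 18.7% of all tested genes, and the median was -0.82.

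**Figure D1:**
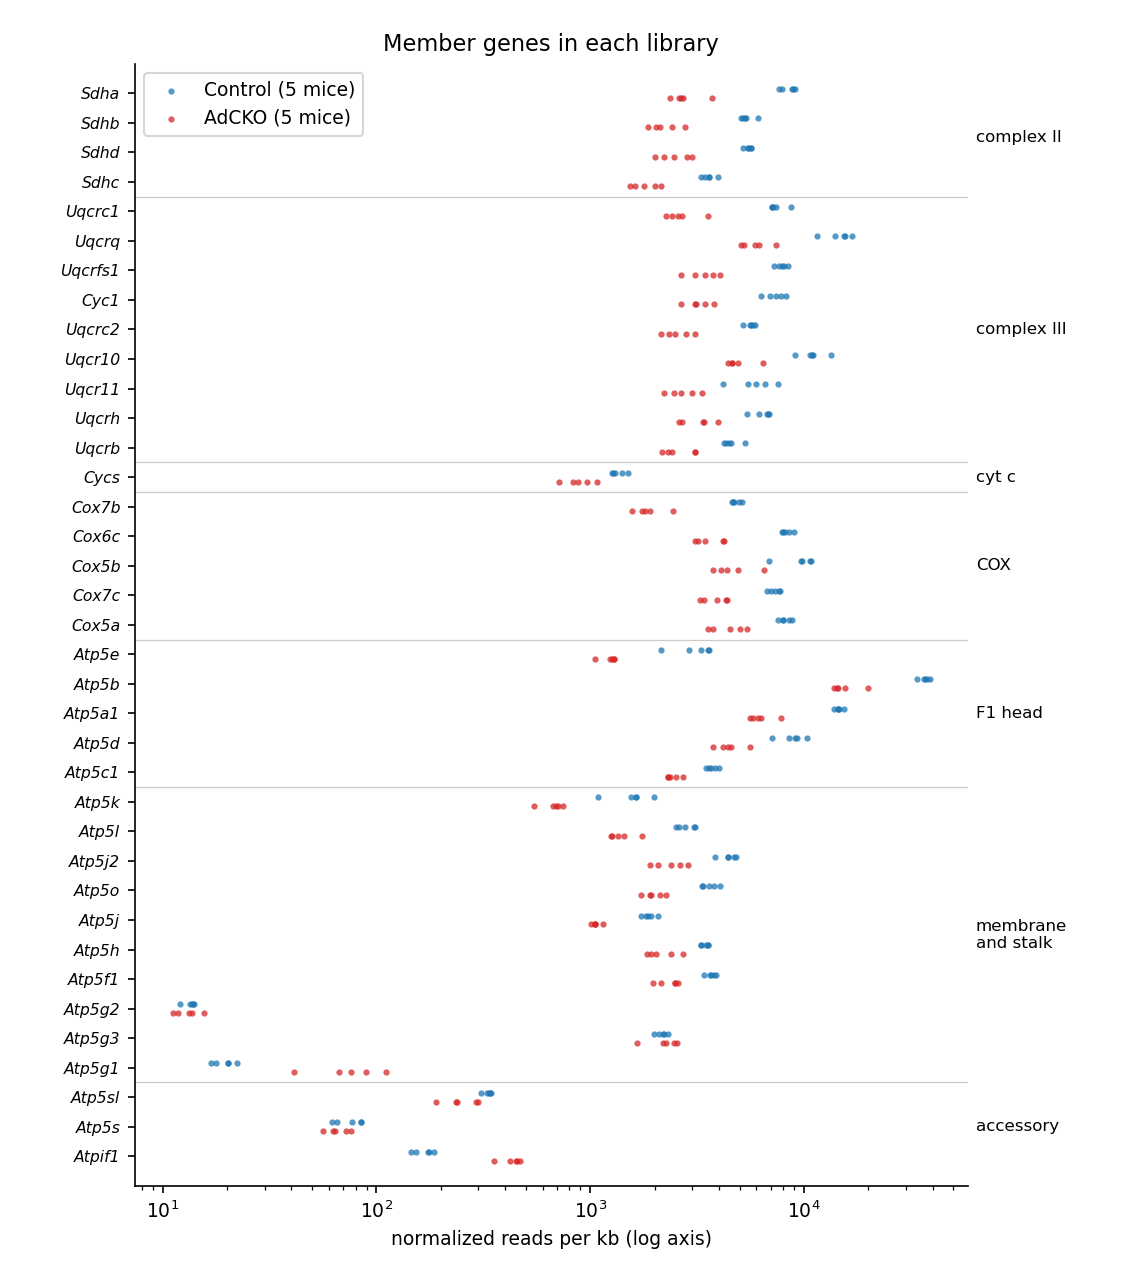
Level of each of the 37 genes in normalized reads per kb (log axis) in 5 Control (blue) and 5 AdCKO (red) libraries, 1 point per library, ordered by complex and then by fold change. In 32 genes the red points lie wholly below the blue ones, and in Atp5g1 and Atpif1 wholly above.

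The size of this shift, and for some genes its direction, depended on how libraries were scaled. The deposited values sum to 7615403 to 8171138 normalized reads over the Control libraries and to 5419800.0 to 5843024 in AdCKO. When every library was brought to the same total, the median of all tested genes moved to 0.46 and that of the 37 genes to -0.52, -0.98 relative to all genes. Then 26 were called lower and 4 higher, where 9.77% of all tested genes were lower and 60.6% higher. After quantile normalization 18 were called lower and 3 higher, against 31.2% and 22.0% of all tested genes, with a median of -0.34 (-0.26 relative to all genes). Quantile normalization gives genes of equal rank equal values in every library. Ranked by group mean, Atp5b was number 7 of the tested genes in Control and again in AdCKO, although its mean fell to 42.6% of Control, and its log2 change was 0.00027 on that scale. Among the 100 tested genes with the highest means were 19 of the 37 in Control and 12 in AdCKO. Complex II was called lower in full under all 3 scalings, as 4 of 4 genes.

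**Figure D2:**
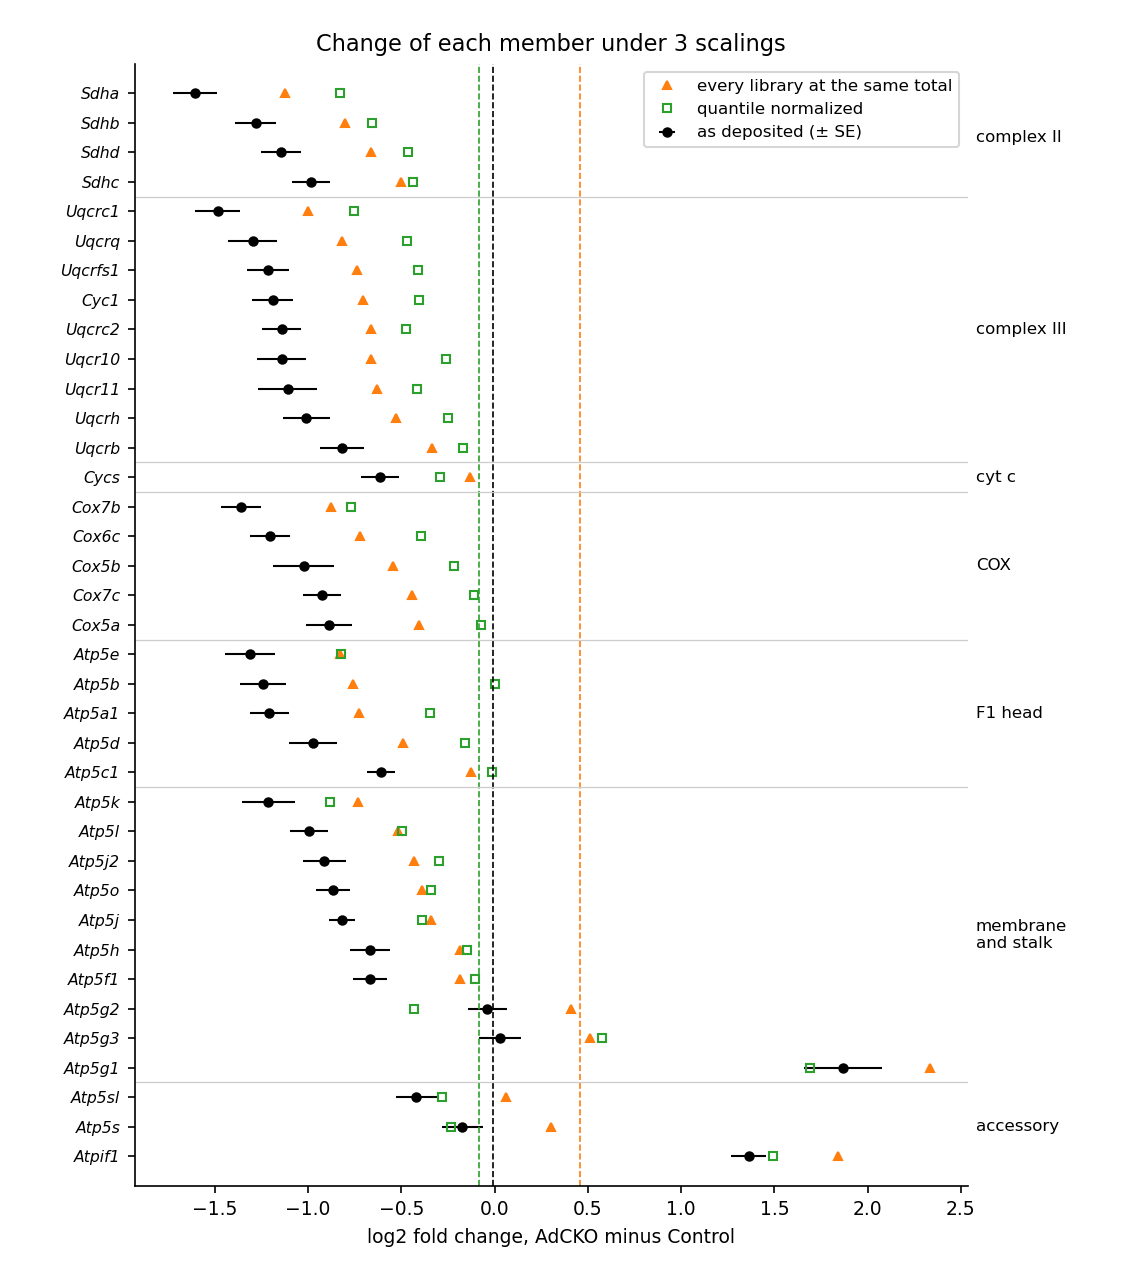
Log2 change of each gene, AdCKO minus Control, from the deposited values (black, ± SE), with every library at the same total (orange) and after quantile normalization (green); dashed lines mark the median of all tested genes on each scale. Complex II genes lie left of the dashed line of their own colour on each scale, and Atp5g1 and Atpif1 lie to the right.

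All 4 complex II genes fell. Sdha, the flavoprotein that oxidizes succinate, stood at 9084, 7938, 7658, 8934 and 8823 in Control replicates 1 to 5 and at 2365, 2714, 2664, 2606 and 3728 in AdCKO replicates 1 to 5. Its AdCKO mean was 33.2% of Control, the lowest percentage among the 37, with a log2 change of -1.61 ± 0.12 (adjusted p = 2.96e-07). AdCKO replicate 5 was the highest of its group and still lay below every Control library. Sdhb, the iron-sulfur subunit, went from 5418 ± 412 to 2245 ± 361 (mean ± SD, n = 5 each), at 41.4% of Control. Of the membrane anchors, Sdhd was at 45.7% and Sdhc at 50.8% of Control, with log2 changes of -1.15 ± 0.11 and -0.99 ± 0.10. The difference between Sdha and Sdhc was not tested. Sdha spans chr13:74459703-74487688 on the minus strand of mm9, the build of the deposited coordinates. For each complex II gene, no 50-base stretch of the annotated transcript was found a second time in the genome.

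The 9 complex III genes all fell, by log2 changes from -0.82 to -1.48, with a median of -1.14. Uqcrc1, a core protein of the complex on the matrix side, was at 7394, 8699, 7094, 7201 and 7091 in Control and 2425, 2583, 2686, 2263 and 3563 in AdCKO. Every AdCKO value was under every Control value, and the log2 change was -1.48 ± 0.12 (adjusted p = 5.86e-07). Uqcrq, a small subunit, was the most abundant gene of the complex per kb, at 11566, 16763, 13913, 15487 and 15446 in Control and 5245, 5899.6, 6159, 5104 and 7374 in AdCKO. Control replicate 1 was the lowest Control library for it and still lay above AdCKO replicate 5, the highest of that group. The catalytic subunits, Uqcrfs1 (the Rieske iron-sulfur protein) and Cyc1 (cytochrome c1), were at 43.4% and 43.9% of Control, with log2 changes of -1.22 ± 0.11 and -1.19 ± 0.11. The second core protein, Uqcrc2, was at 45.6% of Control. The other small subunits ranged from 45.4% (Uqcr10) to 57.2% (Uqcrb), Uqcr11 and Uqcrh lying between. Of the transcript of Uqcrb, 61.5% of 50-base stretches occur elsewhere in the genome, so part of its reads cannot be assigned by sequence. Uqcrb lost its call when libraries were brought to the same total, at a log2 change of -0.34 (adjusted p = 0.018), and the other 8 kept theirs. After quantile normalization 5 of the 9 were called lower, and Uqcr10, Uqcr11, Uqcrb and Uqcrh were not (adjusted p from 0.012 to 0.23). Of all tested genes, 9.77% were called lower at the same total and 31.2% after quantile normalization.

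Cytochrome c, the soluble carrier between complexes III and IV, is encoded by Cycs, which was at 1307, 1265, 1285, 1416 and 1497 in Control and 827, 874, 1071, 716 and 963 in AdCKO. Its AdCKO mean was 65.7% of Control, and the log2 change was -0.61 ± 0.10 (adjusted p = 0.000214). Its electron donor Cyc1 was at 43.9%, and the difference between these genes was not tested. The call was lost at the same total, with a log2 change of -0.13 (adjusted p = 0.27), and under quantile normalization, at -0.29 (adjusted p = 0.032).

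The 5 common COX subunits fell to between 39.3% and 54.7% of Control. Cox7b, a small membrane subunit whose gene is on the X chromosome, was at 4602, 4686, 4680.5, 5122 and 4962 in Control and 1756, 1805, 1910.2, 1564 and 2429 in AdCKO. Its 5 AdCKO values were all far below the Control range, and its log2 change was -1.36 ± 0.11 (adjusted p = 4.65e-07). Cox5b, a subunit on the matrix side and the most abundant of the 5, was at 6838, 10769, 9728, 10666 and 9776 in Control and 3768, 4905, 4357, 4085 and 6520.5 in AdCKO. Its lowest Control library, replicate 1, and its highest AdCKO library, replicate 5, nearly met. The log2 change was -1.02 ± 0.16 (adjusted p = 0.000154), and 62.7% of the 50-base stretches in its transcript have copies elsewhere. Cox6c was at 43.7%, Cox7c at 52.96% and Cox5a at 54.7% of Control. At the same total all 5 stayed called lower, against 9.77% of all tested genes. After quantile normalization 2 did, Cox7b and Cox6c, against 31.2% of all tested genes.

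In the F1 head of ATP synthase, all 5 genes fell. Atp5b, for the catalytic beta subunit, had the highest level of all 37 genes in both groups, at 36951, 38762, 33845, 37613 and 36280.2 in Control and 14354, 15499, 13893, 14447 and 20008 in AdCKO. AdCKO replicate 5 stood above the other AdCKO libraries and far below the lowest Control library. Its log2 change was -1.24 ± 0.12 (adjusted p = 3.08e-06). Atp5a1, for the alpha subunit that alternates with beta around the head, went from 14520.3 ± 558 to 6321 ± 868, a log2 change of -1.21 ± 0.10. Atp5e (epsilon), of the central stalk, had the most negative change of the head at -1.31 ± 0.13, with 2152, 3312, 2908, 3548 and 3582 in Control and 1298, 1292, 1244, 1057 and 1263 in AdCKO. Control replicate 1 was again the lowest Control library. Atp5d (delta), its partner in the central stalk, was at 50.95% of Control. Atp5c1 (gamma), the shaft that turns inside the head, was at 65.6% of Control, with a log2 change of -0.61 ± 0.08. Differences in fold between the 5 head genes were not tested. At the same total 4 of the 5 were called lower and Atp5c1 was not (log2 change -0.13, adjusted p = 0.094). After quantile normalization 2 were, Atp5a1 and Atp5e. Among all tested genes, 9.77% were called lower at the same total and 31.2% after quantile normalization.

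The membrane and stalk part of ATP synthase held 10 genes, of which 7 fell, 1 rose and 2 did not pass the test. Among all tested genes, 28.0% were called lower and 25.6% higher. Atp5k, for the small subunit e that takes part in joining ATP synthase into dimers, was at 1090.0, 1551, 1634, 1986 and 1636 in Control and 691, 671, 710.4, 544 and 744 in AdCKO. It had the most negative change of this group, at -1.21 ± 0.14 (adjusted p = 1.12e-05). Atp5j2 (subunit f), the most abundant gene of the group per kb, went from 4439.6 ± 390.1 to 2375 ± 385, at 53.5% of Control. Atp5j (coupling factor 6, in the peripheral stalk) had the smallest p of the group, with 1725, 1924, 1855, 1833 and 2079 in Control and 1055, 1152, 1012, 1054 and 1052 in AdCKO, a log2 change of -0.82 ± 0.07 (adjusted p = 8.3e-07). The other peripheral stalk genes were at 54.9% (Atp5o, OSCP), 63.5% (Atp5h, subunit d) and 63.2% (Atp5f1, subunit b) of Control, and Atp5l (subunit g) at 50.3%. Copies elsewhere in the genome cover 89.4% of the 50-base stretches of the Atp5l transcript and 67.9% of those of Atp5h. Atp5h and Atp5f1 were not called at the same total, with log2 changes of -0.19 and -0.19, nor after quantile normalization, when Atp5j2 lost its call too (adjusted p = 0.032).

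The c subunit of the proton-driven ring is made from 3 genes, Atp5g1, Atp5g2 and Atp5g3, whose precursors differ in the import signal and end in the same mature protein. The coding bases of that shared 78-residue end are shown to make visible how nearly alike the genes are where reads must tell them apart. They were read from mm9 by the Gencode coding exons (2 coding pieces each, minus strand, in the order of translation), at chr11:95934421-95934958 for Atp5g1, chr15:102493448-102495606 for Atp5g2 and chr2:73746653-73747362 for Atp5g3, with capitals where the 3 genes do not all share the base.
Atp5g1: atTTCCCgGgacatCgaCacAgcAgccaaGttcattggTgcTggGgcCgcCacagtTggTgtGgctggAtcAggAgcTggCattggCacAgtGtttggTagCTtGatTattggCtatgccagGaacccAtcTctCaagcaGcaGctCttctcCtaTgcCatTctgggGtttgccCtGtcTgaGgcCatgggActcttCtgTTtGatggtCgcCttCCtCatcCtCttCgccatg
Atp5g2: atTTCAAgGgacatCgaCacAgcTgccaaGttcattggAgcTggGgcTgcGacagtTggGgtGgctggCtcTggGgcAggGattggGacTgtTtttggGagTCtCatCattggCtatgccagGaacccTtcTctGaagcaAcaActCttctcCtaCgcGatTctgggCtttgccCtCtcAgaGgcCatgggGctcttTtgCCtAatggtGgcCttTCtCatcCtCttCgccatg
Atp5g3: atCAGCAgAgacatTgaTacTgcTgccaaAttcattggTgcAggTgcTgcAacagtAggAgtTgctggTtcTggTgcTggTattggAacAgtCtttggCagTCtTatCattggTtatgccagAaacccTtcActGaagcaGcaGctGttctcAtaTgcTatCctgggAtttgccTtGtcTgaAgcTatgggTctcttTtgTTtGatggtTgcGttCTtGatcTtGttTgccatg
Over these 234 bases, Atp5g1 and Atp5g2 were 84.6% identical, Atp5g1 and Atp5g3 78.6%, and Atp5g2 and Atp5g3 77.4%, and the longest run shared by Atp5g1 and Atp5g2 was 20 bases. A read of 50 bases could therefore tell the 3 genes from each other in this stretch. Copies elsewhere were another matter. In the annotated transcript, 73.8% of the 50-base stretches of Atp5g1 and every one of Atp5g2 recur exactly at other places in the genome, whereas none of Atp5g3 does. How reads that fit several places were counted is not given in the sources used here, so the levels of Atp5g1 and Atp5g2 are uncertain.

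On the deposited values Atp5g3 was the main c subunit gene per kb in both groups, a ranking as uncertain as the levels of Atp5g1 and Atp5g2. It was at 1989, 2204, 2192, 2109 and 2312 in Control and 2186, 2556, 2474, 2255 and 1662 in AdCKO. It did not pass the test, with a log2 change of 0.03 ± 0.11 (adjusted p = 0.83), and the groups overlapped, AdCKO replicate 5 being the lowest library of all. Its sign changed between settings. At the same total it was called higher, at 0.51 (adjusted p = 0.0016), close to the shift of all genes on that scale, and after quantile normalization at 0.58 (adjusted p = 0.0015). Without the 3 muscle-bearing AdCKO libraries it was -0.09 (adjusted p = 0.63). Set against Atp5b within each library, Atp5g3 was at 5.38% to 6.48% of the Atp5b level in Control and at 8.31% to 17.8% in AdCKO. Multiplying a library by a single factor leaves this ratio as it is. Quantile normalization does not, and on that scale the log2 changes were 0.58 for Atp5g3 and 0.00027 for Atp5b.

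Atp5g1 rose. It was at 16.8, 20.2, 22.2, 20.1 and 17.7 in Control and 89.2, 111, 67.1, 76.3 and 41.1 in AdCKO, and all AdCKO values exceeded all Control values. The mean went from 19.4 ± 2.16 to 76.9 ± 25.9, a log2 change of 1.87 ± 0.21 (adjusted p = 7.71e-06; exact two-sided permutation p = 0.0079, the smallest that 5 against 5 allows). The highest values came from AdCKO replicates 1, 2 and 4, the libraries with muscle RNA, and the part of muscle RNA in the change was not tested. In the other 2 AdCKO libraries, where summed muscle markers were near but above the Control range, it was at 67.1 and 41.1. The log2 change of these libraries against all Control libraries was 1.40 (adjusted p = 0.00013). With the muscle markers as a covariate it was 1.38 (adjusted p = 3.8e-05). Even so, Atp5g1 gave only 2.4% to 4.14% of the summed level of the 3 c subunit genes in AdCKO, against 0.755% to 0.997% in Control. These shares carry the uncertainty that copies elsewhere in the genome bring to Atp5g1 and Atp5g2.

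Atp5g2 was the lowest of the 37 genes, at 13.4, 13.7, 13.9, 11.997 and 13.9 in Control and 15.6, 13.2, 11.1, 13.7 and 11.8 in AdCKO. The groups overlapped, and the log2 change of -0.04 ± 0.10 did not pass the test (adjusted p = 0.76). Its direction depended on the scaling, the gene being called higher at the same total (0.41, adjusted p = 0.0041) and lower after quantile normalization (-0.43, adjusted p = 0.0016). The summed level of the 3 genes was 2019 to 2344 in Control and 1715 to 2680.0 in AdCKO. The ranges of this sum overlapped between the groups, where all 5 head genes had separate ones. Nearly all of the sum was Atp5g3, at means of 2161 out of 2194 in Control and 2227 out of 2317 in AdCKO. It therefore says little of Atp5g1 and Atp5g2, whose levels are uncertain.

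**Figure D3:**
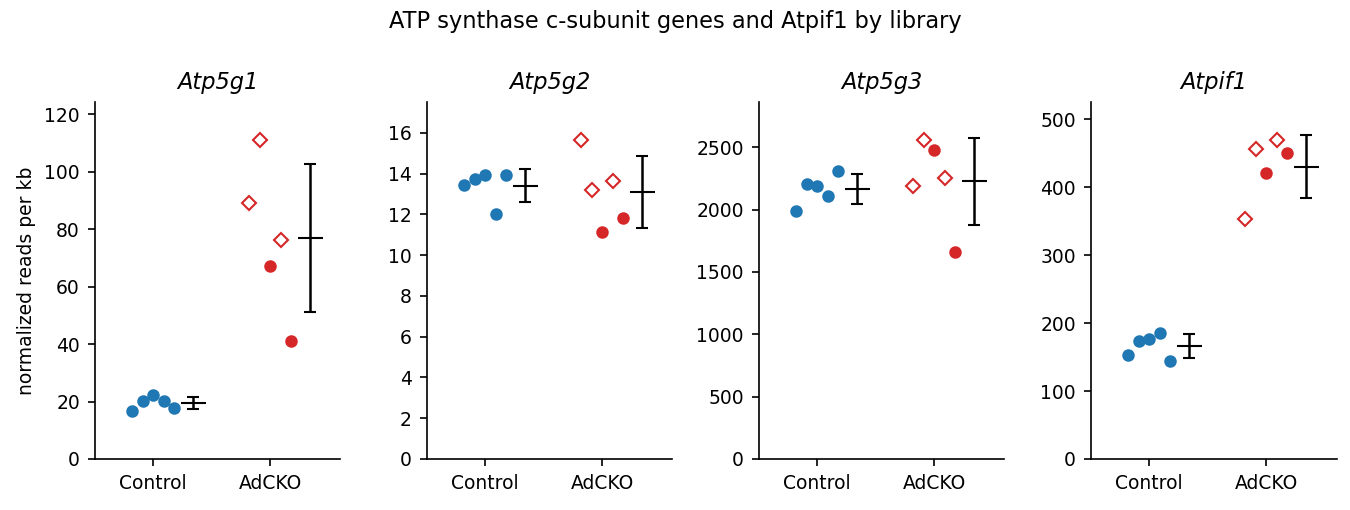
Normalized reads per kb of Atp5g1, Atp5g2, Atp5g3 and Atpif1 in Control (blue) and AdCKO (red), 1 point per mouse in replicate order, with the mean ± SD beside each group; open diamonds are AdCKO replicates 1, 2 and 4, which hold skeletal muscle RNA. Axes start at 0 and differ between panels. Atp5g1 and Atpif1 are higher in all 5 AdCKO libraries, and Atp5g2 and Atp5g3 overlap.

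Atpif1, the inhibitor that blocks ATP synthase from running backwards and splitting ATP, rose. It was at 153, 174, 177, 185 and 144 in Control and 354, 456, 421, 469 and 451 in AdCKO, so the lowest AdCKO library, replicate 1, was well above the highest Control library. The mean went from 167 ± 17.3 to 430.1 ± 46.2, a log2 change of 1.36 ± 0.09 (adjusted p = 1.77e-07; exact two-sided permutation p = 0.0079). Unlike Atp5g1, it was no lower in the AdCKO libraries with little muscle RNA, at 421 and 451, and without the 3 muscle-bearing libraries the log2 change was 1.39 (adjusted p = 7.5e-06). It stayed higher at the same total, at 1.84, and after quantile normalization, at 1.49. Relative to Atp5b in the same library, its level was 0.398% to 0.522% in Control and 2.25% to 3.25% in AdCKO.

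The remaining rows named after ATP synthase, Atp5s and Atp5sl, are not core subunits of the enzyme, and RefSeq lists them under other names today (Dmac2l and Dmac2). Atp5s was at 85.04, 76.5, 85.01, 65.5 and 62.1 in Control and 62.6, 63.8, 72.1, 56.2 and 75.7 in AdCKO. The ranges overlapped and the log2 change of -0.17 ± 0.11 did not pass the test (adjusted p = 0.18). Atp5sl was at 345, 329, 309.9, 335 and 339 in Control and 235, 238, 299, 189.6 and 293 in AdCKO, which did not overlap, and was called lower at -0.42 ± 0.11 (adjusted p = 0.0053). That call was the weakest of the 32. It was lost without any one of AdCKO replicates 1 or 2 or Control replicates 1, 2, 4 or 5 (adjusted p from 0.011 to 0.014), without the 3 muscle-bearing libraries (log2 change -0.16, adjusted p = 0.14), and at the same total, where the sign turned to 0.06.

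Within AdCKO, the order of the libraries was alike for many of the genes that fell. The coefficient of variation over 5 libraries had a median of 7.59% across the 37 genes in Control and of 15.2% in AdCKO. AdCKO replicate 5 was the highest AdCKO library for 23 of the 32 genes that fell, and replicate 3 for 7 of them. AdCKO replicate 4 was the lowest for 24. Among all genes called lower, 43.2% had their highest AdCKO value in replicate 5, 11.99% in replicate 3, and 23.0% their lowest in replicate 4. Taken as a median over the 32, levels were 42.3%, 49.9%, 50.2%, 40.3% and 56.3% of the Control mean in AdCKO replicates 1 to 5. The summed brown adipocyte markers took a like order, at 27836, 28288, 38817, 21281 and 44011, with replicate 4 lowest and replicate 5 highest, and 2 of the 8 markers, Cox7a1 and Cox8b, are themselves COX subunits. The order also split by muscle RNA. AdCKO replicates 1, 2 and 4, in which it stood out, had lower medians than replicates 3 and 5, although replicates 2 and 3 were close. The part of brown adipocyte content and of muscle RNA in the change of the 32 genes was not tested. Against this order, AdCKO replicate 5 held the lowest AdCKO values of Atp5g1 and Atp5g3.

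Among Control libraries, replicate 1 was the lowest for 21 of the 37 genes and for 24.3% of all tested genes. The genes are short, with a median counted length of 772 bases against 2698 over all tested genes. For the 14 genes of at most 600 counted bases, Control replicate 1 was at a median of 0.825 times the mean of the other Control libraries, and for the 23 longer ones at 0.957. The same split over all tested genes gave 0.851 for the 270 short genes and 0.991 for the rest. Leaving out Control replicate 1 changed the call of Atp5sl alone among the 37.

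**Figure D4:**
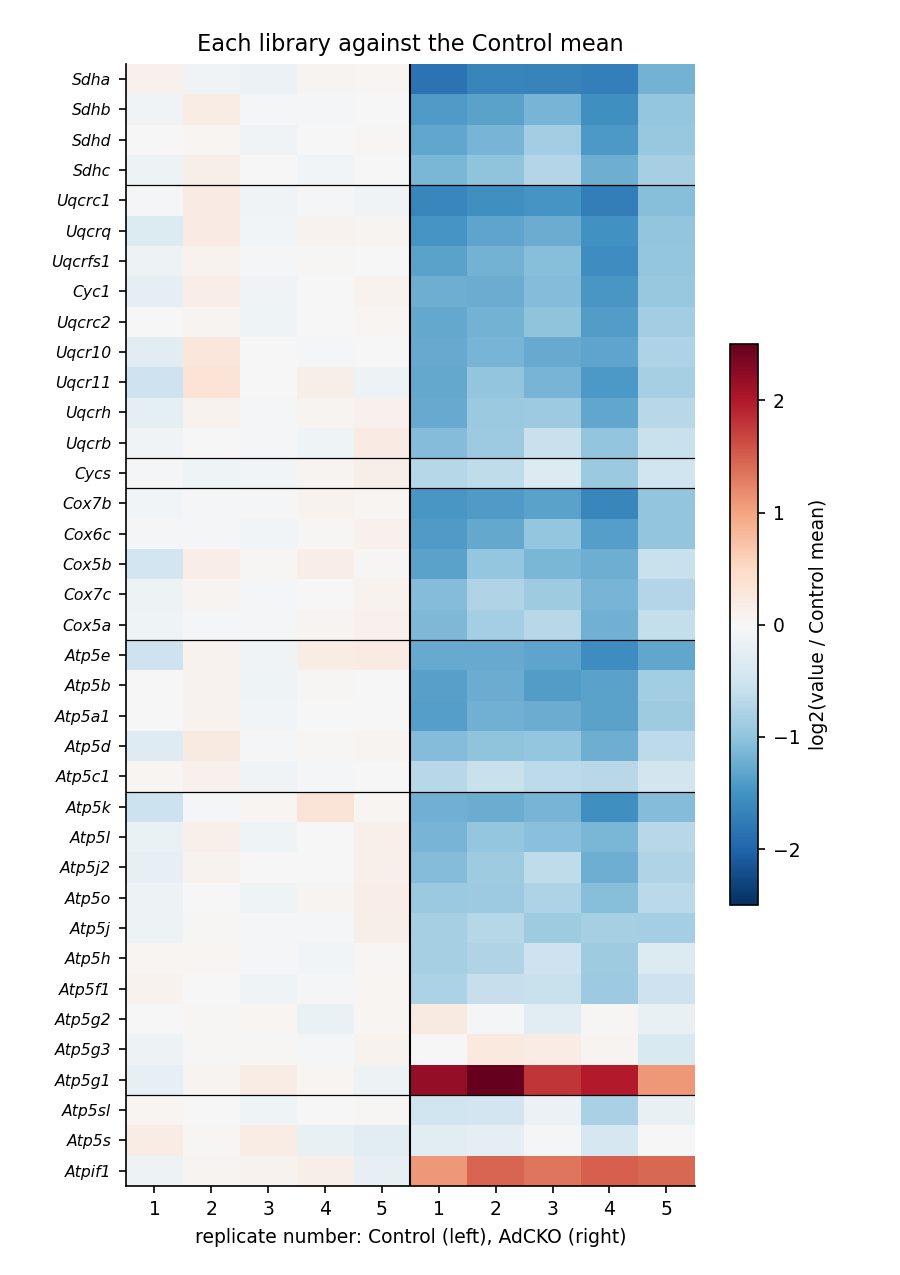
Each library's level as log2 of its ratio to the Control mean of the same gene (colour), for 37 genes (rows, by complex) and replicates 1 to 5 of Control (left) and AdCKO (right). AdCKO replicate 4 is the deepest blue for 24 of the 32 genes that fell and replicate 5 the palest for 23, while Atp5g1 and Atpif1 are red throughout AdCKO.

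Levels per kb spanned a wide range in both groups. By Control mean, Atp5b (36690.2 ± 1836) led, followed by Uqcrq (14635 ± 1991) and Atp5a1 (14520.3 ± 558), the latter pair differing by less than the SD of Uqcrq. Uqcr10 and Cox5b came next, at 11016 ± 1565 and 9555 ± 1594, and also differed by less than their SDs. At the other end lay Atpif1, Atp5s, Atp5g1 and Atp5g2, whose Control ranges did not overlap each other. In AdCKO, Atp5b stayed first, and Atp5a1 and Uqcrq followed at 6321 ± 868 and 5956 ± 906, again within their SDs. Atp5g1 and Atp5s, which were apart in Control, overlapped in AdCKO, at 41.1 to 111 and 56.2 to 75.7.

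The 37 genes lie on 16 chromosomes, and 11 of them have a gene on the opposite strand whose start site is within 1000 bases of their own. These neighbours did not follow a single pattern. Of the 11, 6 were called lower, 1 higher and 4 were not called, where 28.0% of all tested genes were lower and 25.6% higher. These calls rest on the deposited values only, and whether they hold on the other scales was not examined. Sdha and Ccdc127, with start sites 77 bases apart, fell by 1.61 and 0.42 on the log2 scale. Sdhd and Timm8b, a chaperone gene of mitochondrial protein import, start 52 bases apart and had log2 changes of -1.15 and -0.52 (adjusted p = 0.000146 for Timm8b). Atp5c1 fell, whereas Kin, starting 102 bases away, had a log2 change of 0.07 (adjusted p = 0.64). Atp5f1 overlaps Wdr77, Atp5j overlaps Gabpa and Uqcrc2 overlaps Pdzd9, and the library protocol is not stated to keep strand, so reads in the shared bases cannot be assigned. Copies elsewhere in the genome covered over 20% of the 50-base stretches in 13 of the 37 transcripts, and the median log2 change was -0.82 for these 13 and -1.14 for the other 24.

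Genes of the respiratory chain are known targets of the factors NRF1, GABP (an ETS factor), YY1 and the estrogen-related receptors. Promoter windows from RefSeq (GRCm38.p6, 250 bases before to 50 after the start site) were found for 30 of the 37 genes and for 9034 tested genes. Both strands were searched. The NRF1 core GCGCANGCG was present in 13 of the 30 (43.3%) and in 15.8% of all genes with a window. The ETS core CCGGAAG was present in 9 of the 30, against 20.5% of all. A long YY1 core, AAGATGGCG, was held by 3 of the 30, against 3.75%, and the estrogen-related receptor element TNAAGGTCA by 2 (6.67%), against 0.93%. The GC box GGGCGG of SP1 was held by 11 of 30 (36.7%), against 69.6%. The C/EBP-ATF composite TGATGNAA of the stress response was held by none of the 30 and by 2.73% of all genes with a window. These matches are descriptions of letters, and no binding was measured.

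**Figure D5:**
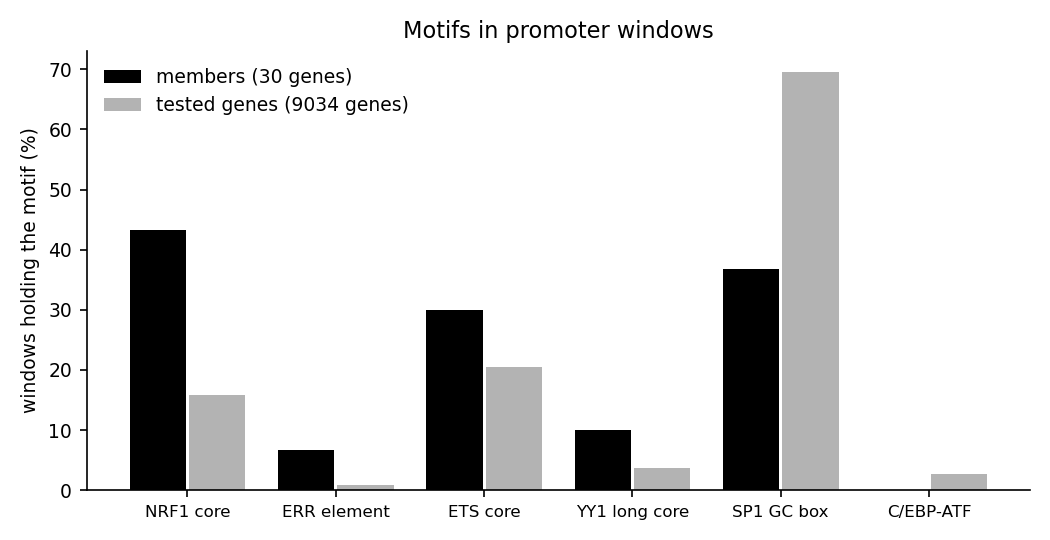
Share of genes (%) with a promoter window that holds each of 6 motifs on either strand, for the 30 subunit genes with a window (black) and for all 9034 tested genes with one (grey). A gene with more than 1 window counts once. The NRF1 core is at 43.3% against 15.8%, and the SP1 GC box at 36.7% against 69.6%.

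The 70 bases before the start site are shown for 4 genes, chosen to set examples with NRF1, ETS and estrogen-related receptor matches beside each other, including Atp5g3, which did not pass the test on the deposited values. All are on the minus strand of GRCm38.p6 and are written 5′ to 3′ toward the gene, ending just before the start site, with matched motif letters in capitals. Positions are chr13:74350241-74350310 for Sdha, chr5:108434400-108434469 for Atp5k, chr11:115419920-115419989 for Atp5h and chr2:73911327-73911396 for Atp5g3.
Sdha: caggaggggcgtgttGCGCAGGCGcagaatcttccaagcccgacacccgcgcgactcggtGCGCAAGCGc
Atp5k: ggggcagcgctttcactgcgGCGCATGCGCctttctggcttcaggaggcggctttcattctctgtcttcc
Atp5h: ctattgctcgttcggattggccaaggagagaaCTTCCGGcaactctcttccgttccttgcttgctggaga
Atp5g3: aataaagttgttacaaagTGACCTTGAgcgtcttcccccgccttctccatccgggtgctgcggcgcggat
Sdha, which fell to 33.2% of Control, has the NRF1 core at 2 places in this stretch, and Atp5k (42.6%) has it in a form that matches on both strands. Atp5h (63.5%) holds the ETS core, read from the opposite strand. Outside the printed stretch, the window of Atp5h also has an NRF1 core and that of Atp5k an ETS core. Atp5g3, at 103% of Control, holds an estrogen-related receptor element on the opposite strand, and its whole window also has an NRF1 core. Atpif1, which rose, has an NRF1 core in its window too, so the motif was found in genes of each kind of response.

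Genes that work beside these subunits were read from lists chosen for their roles. Of 12 assembly factors of complexes II, III and V in the table, 11 fell and 1, Uqcc2, did not pass the test (-0.24, adjusted p = 0.053), where 28.0% of all tested genes were lower. At the same total 7 of the 12 were called lower, against 9.77% of all, and after quantile normalization 11, against 31.2%. Bcs1l, the chaperone that inserts the Rieske protein into complex III, was at 185, 217, 201, 197 and 187 in Control and 84.7, 83.3, 79.2, 82.97 and 91.9 in AdCKO, a log2 change of -1.22 ± 0.07. Tmem70, needed to build the c ring into ATP synthase, went from 903 ± 59.6 to 434 ± 20.4 (-1.06 ± 0.07). It fell although the summed c subunit genes, a sum that holds the uncertain Atp5g1 and Atp5g2, overlapped between groups. Atpaf2 (-0.98) and Uqcc1 (-1.12) also fell. All 36 complex I subunit genes fell, with a median log2 change of -1.003. At the same total 24 of the 36 were called lower, and after quantile normalization 25, with a median of -0.59.

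Among 10 COX subunits that exist as isoforms or pairs, 7 fell, 1 rose and 2 did not pass the test, against 28.0% lower and 25.6% higher among all tested genes. Of the 10, 4 were called lower and 2 higher at the same total, where 9.77% of all tested genes were lower and 60.6% higher. After quantile normalization 4 were called lower and 1 higher, where the shares were 31.2% and 22.0%. Cox6a1 (-1.47 ± 0.14), Cox8a (-1.18 ± 0.12), Cox8b (-1.59 ± 0.20) and Cox7a2 (-0.70 ± 0.10) were the fallers with the smallest p. Cox6a2, the heart and skeletal muscle form of Cox6a1, rose, from 21.996, 21.2, 25.1, 21.02 and 23.4 in Control to 360.3, 976, 256, 575 and 280.0 in AdCKO (log2 change 4.19 ± 0.30). Its highest values were in AdCKO replicates 2 and 4, both with muscle RNA. In AdCKO replicates 3 and 5, Cox6a2 was over 10 times its Control mean. Muscle markers summed to 265 and 279 there, against at most 224 in Control. The part of muscle RNA in the rise of Cox6a2 was not tested. Of the carriers that serve ATP synthase, Slc25a5, an ADP/ATP carrier, was called lower at -0.31 ± 0.08 (adjusted p = 0.0035), but the call and its direction rested on the scaling. The log2 change was 0.17 at the same total and 0.20 after quantile normalization, neither called lower, and the call was also lost with the replicate block and without Control replicate 5. The phosphate carrier Slc25a3 was at -0.07 (adjusted p = 0.47) and the ADP/ATP carrier Slc25a4 at -0.43 (adjusted p = 0.021). Their signs changed too, to 0.41 and 0.06 at the same total and to 0.38 and 0.19 after quantile normalization. Of the 3 carriers tested, 1 was called higher on each of these scales, where 60.6% and 22.0% of all tested genes were.

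Of 11 transcriptional regulators of these genes that were tested, 4 rose, 2 fell and 5 did not pass the test. These counts are near the shares over all tested genes, 25.6% higher and 28.0% lower. Ppargc1a, the coactivator PGC-1α that drives mitochondrial biogenesis, was at 135, 95.6, 83.9, 87.6 and 101 in Control and 452, 327, 901, 247 and 725 in AdCKO, a log2 change of 2.24 ± 0.30 (adjusted p = 3.7e-05). Its highest values were in AdCKO replicates 3 and 5. Pprc1, a related coactivator, rose by 1.05, Nrf1 by 0.49 and the GABP subunit Gabpb1 by 0.47, while Gabpa (0.14) and Yy1 (-0.04) did not pass the test. Tfam, the mitochondrial DNA packaging factor, fell, with a log2 change of -0.44, and so did Esrrg, an estrogen-related receptor, at -0.81. With every library at the same total, 6 of the 11 were called higher and none lower, where 60.6% of all tested genes were higher and 9.77% lower, and the log2 change of Tfam was 0.03. After quantile normalization 3 were called higher and 2 lower, with Nrf1, at a log2 change of 0.25, losing its call and Gabpb1 at 0.31. Without AdCKO replicate 5, 5 of the 11 were called lower, and without the 3 muscle-bearing libraries none was.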

How the data were processed

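Expression was read from the table of all genes that the authors deposited, for 5 Control (WT in the labels) and 5 AdCKO (KO) libraries. Per the labels and the study's methods, reads were aligned to mm9 with STAR, exon reads were counted with iRNA-seq and normalized with DESeq2, versions not being given in the sources used here. The deposited values are a coverage-like signal, exon reads after the normalization and divided by the counted length in kb. They are not counts, and the depth behind them is unknown. Their smallest value is 0.0532, so no gene is listed at 0. The authors' group means, log2 fold changes and adjusted p-values, and their lists of changed genes, hold the study's own comparison and were not used.

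A pseudocount of 1 was added before log2, and genes with a mean of at least 10 in either group were tested, 11244 of 15075. AdCKO was compared with Control by limma 3.58.1 under R 4.3.3 (two-sided, intensity trend), adjusted by Benjamini-Hochberg over the tested genes, with calls below 0.01. Fold changes on this scale understate those of low genes. Single genes were also compared by an exact two-sided permutation test over 252 assignments. On simulated data for the same 11244 genes, 180 of 200 changed genes were recovered with 2 false calls. There, genes varied independently, far fewer changed than were called here, and library totals were not made to differ between groups. The simulation therefore checks the code and does not give the error rate of the calls in these data. The labels name no batch, and p-values measure the spread between these 10 libraries. Copies were counted as 50-base stretches of annotated transcripts that recur exactly in the genome.

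The genes and lists were chosen with earlier results of these data known. From each role group the text names the called gene with the smallest p, the one with the most negative change, the one with the highest Control mean, every gene that rose or was not called, and the 3 Atp5g genes. The percentages of other genes complete each complex, outside this rule. From each accompanying list it names up to 4 called genes with the smallest p and those against the majority, and others were chosen after their values were seen. Alternatives were a pseudocount of 0.1 or 10, no filter, equal totals, quantile normalization, limma without or with a robust trend, a replicate block, muscle markers as covariate, a threshold of 0.05, each library left out, and, added after the data were seen, AdCKO replicates 1, 2 and 4 left out. Figures were drawn with matplotlib 3.10.9.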

Additional observations from a re-analysis of the deposited data

Results flagged for a closer look

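In 36 groups of 5 libraries (18 named genes in Control and in AdCKO), 6 had a library whose gap to its neighbour took an unusually large part of the group's range (Dixon's ratio above 0.71). For a single group, chance alone gives about 1 in 20. The 36 groups share their libraries and are not independent, so the 6 cannot be set against that rate. AdCKO replicate 5 was high for Atp5b (20008) and for Sdha (3728). AdCKO replicate 4 was low for Atp5e (1057). Control replicate 1 was low for Cox5b (6838), Control replicate 2 was high for Uqcrc1 (8699), and Control replicate 4 was low for Atp5g2 (11.997). AdCKO replicates 5 and 4 were also the highest and lowest of their group in summed brown adipocyte markers, whose part in these values was not tested. Muscle RNA stood out in AdCKO replicate 4, and its part was not tested either.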

How the results depend on the processing

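The 32 lower calls became 18 after quantile normalization, where 31.2% of all tested genes were lower, and 26 at equal totals, where 9.77% were. The 2 higher calls became 4 at equal totals, where 60.6% of all tested genes were higher. The median log2 fold change of -0.997 became -0.52 at equal totals, -0.34 after quantile normalization and -0.82 without the 3 muscle-bearing AdCKO libraries. Genes with all AdCKO libraries below all Control libraries went from 32 to 22 at equal totals and to 16 after quantile normalization. The share of all tested genes with such a separation was 26.4% on the deposited values. It was not computed on the other scales, so these lower counts cannot be set against it. With 1 library left out at a time, lower calls ranged from 31 to 32, higher calls stayed at 2 and the median ranged from -1.08 to -0.94. Signs changed for Atp5b after quantile normalization (0.00027), for Atp5s (0.30), Atp5sl (0.060) and Atp5g2 (0.41) at equal totals, and for Atp5g3 with muscle markers as covariate (-0.10) and without the 3 libraries (-0.0899). With single libraries left out, Atp5g3 ranged from -0.025 to 0.13, with the sign turned (to -0.025, -0.013 and -0.00046) without AdCKO replicate 2 or 3 or Control replicate 1, and Atp5g2 turned to 0.013 without AdCKO replicate 3. The causes were not tested. Of 360 values of named genes under the alternatives, 333 kept their direction and side of the threshold.

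Same-numbered Control and AdCKO libraries did not deviate together (correlations of -0.07, 0.09, -0.17, -0.27 and 0.10 across genes). The labels give replicate numbers only, and these correlations cannot show whether the mice were paired. With the replicate block, 31 genes were called lower and 2 higher. The lost call was Atp5sl (adjusted p = 0.012).

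Depth is unknown, so counting error cannot be given for Atp5g1 and Atp5g2, the lowest of the 37 levels in Control. Copies elsewhere in the genome limit these and 11 other transcripts. Total signal per library differed between the groups with no overlap, and which scaling reflects RNA per cell was not tested.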
